A study of Mus musculus with 4 samples.

Results

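The lymphotoxin and TNF system was followed through the leukocytes of KPC tumors, to see which cell class made each ligand and which class carried each receptor. Its 8 genes were chosen by symbol out of 32285 genes in the count table. They were the ligand genes Lta, Ltb, Tnfsf14 (LIGHT) and Tnf and the receptor genes Ltbr, Tnfrsf1a, Tnfrsf1b and Tnfrsf14 (HVEM), and all were detected. KPC is a mouse pancreatic cancer line. The cells had been grown under the skin of adult male C57BL/6 mice.

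The 4 groups of mice were untreated, given a STING agonist (ADU-S100, a synthetic cyclic dinucleotide injected into the tumor), given an LTβR agonist (LTbR agonist in the labels; antibody 4H8, which activates the lymphotoxin-β receptor, injected intraperitoneally), or given STING and LTβR agonist together, called the combination. The tumors of a group were pooled, and live CD45+ leukocytes were sorted for droplet single-cell RNA sequencing, with 1 library per group. All groups were wild-type mice bearing the same cancer line, which is 1 model of the disease. Single-cell sequencing was repeated in the study, and the sources used here do not tell from which run these libraries came. Values of single tumors or of a replicate library were not analysed here, so no test was made, and each interval below covers counting error only.

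Lymphotoxin-α and lymphotoxin-β are made by lymphocytes and assemble on the cell surface into a complex that binds LTβR on myeloid and stromal cells. LIGHT also binds LTβR and, in addition, HVEM, whereas TNF and secreted lymphotoxin-α bind the TNF receptors encoded by Tnfrsf1a and Tnfrsf1b. LTβR signals through the kinase NIK to the noncanonical NF-κB proteins and is best known for building lymph nodes and tertiary lymphoid structures.

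The libraries held 32529174 to 60770280 unique molecular identifiers (UMIs, counted molecules), and 23011 of 24839 barcodes passed the cell filter. The leukocyte gene Ptprc (CD45) had a UMI in 93.6 to 95.7% of these cells. Markers of tumor cells and fibroblasts summed to 6.69 to 8.58 and 0.927 to 2.49 CPM (UMIs of a gene per 1000000 UMIs of the cells named), those of endothelial cells to 73.6 to 81.4 CPM, and the CD45 sort was made to leave these stromal cells out. Marker genes named 6 classes: T-like (1355 to 2103 cells per library), NK- or ILC1-like (274 to 726), B-like (15 to 535), macrophage- or monocyte-like (1511 to 3150), dendritic-like (237 to 735) and neutrophil-like cells (67 to 380). The neutrophil-like cells were shallow, with median UMIs of 1956 to 2391.5 per cell against 4268 to 5063 in T-like and 7457.5 to 10308 in macrophage- or monocyte-like cells. Values are given below in the order untreated, STING agonist, LTβR agonist and combination, and differences from untreated keep that order. A cluster of 534 cells stayed unnamed, and 44 mast- or basophil-like cells were set aside. Neutrophil-like cells of the combination and B-like cells of the STING agonist library were few, and their values carry wide intervals.

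Lta, Tnf and Ltb are neighbors on mouse chromosome 17. In the GRCm38 annotation Lta (ENSMUSG00000024402) lies at chr17:35203165-35205351 on the minus strand, Tnf (ENSMUSG00000024401) at chr17:35199381-35202007 on the minus strand and Ltb (ENSMUSG00000024399) at chr17:35194439-35196320 on the plus strand. The gap was 1158 bases between Lta and Tnf and 3061 bases between Tnf and Ltb, and all 3 genes fit in 10913 bases. Because Tnf was highest in another cell class than Lta and Ltb, the bases just before the starts of the 3 genes are shown (RefSeq, GRCm38.p6, 5′ to 3′ on each gene's strand).
Lta promoter, chr17:35205352-35205601, minus strand: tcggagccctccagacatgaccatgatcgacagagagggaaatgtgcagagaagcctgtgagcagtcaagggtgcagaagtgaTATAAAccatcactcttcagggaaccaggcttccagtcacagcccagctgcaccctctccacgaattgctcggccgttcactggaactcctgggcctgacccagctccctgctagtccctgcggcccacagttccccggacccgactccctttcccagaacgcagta
Tnf promoter, chr17:35202008-35202257, minus strand: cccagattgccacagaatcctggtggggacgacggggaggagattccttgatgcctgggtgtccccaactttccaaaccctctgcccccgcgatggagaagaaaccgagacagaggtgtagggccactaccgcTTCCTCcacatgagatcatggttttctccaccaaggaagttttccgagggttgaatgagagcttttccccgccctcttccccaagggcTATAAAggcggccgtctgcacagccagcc
Ltb promoter, chr17:35194257-35194438, plus strand: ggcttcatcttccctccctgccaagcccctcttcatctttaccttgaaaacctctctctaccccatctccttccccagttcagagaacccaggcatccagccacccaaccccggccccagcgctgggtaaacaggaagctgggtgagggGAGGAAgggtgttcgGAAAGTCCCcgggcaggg
Capitals mark matches, on either strand, to 4 short motifs: a κB form (GGGACTTTC), AP-1 (TGANTCA), the core of PU.1 sites (GAGGAA) and the TATA box (TATAAA), none of which overlap here. NF-κB proteins bind κB sites, and PU.1 is a transcription factor of myeloid and B cells. Tnf held a TATA match 29 to 24 bases before its start and a PU.1 core on the opposite strand 117 to 112 bases before it. In Lta the TATA match stood farther away, 167 to 162 bases before the start. The Ltb stretch held the κB form on the opposite strand, 86 to 78 bases before the RefSeq start, and a PU.1 core 101 to 96 bases before it. The last 68 bases before that start are not printed, since the annotation of the count table already places them inside Ltb. Among 32851 promoters of 250 bases, the κB form was found in 0.289%, the AP-1 motif in 6.75%, the PU.1 core in 23.3% and the TATA box in 12.4%. The letters were chosen after these promoters had been seen, and a match is a description, not a binding site.

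Ltb, which encodes lymphotoxin-β, the membrane anchor of the lymphotoxin complex, was a gene of T-like cells. Its T-like level was 377.5 CPM of class UMIs in untreated tumors (3994 UMIs; 365.9 to 389.4), and 520.0, 504.0 and 474.7 CPM in the treated ones. A UMI was found in 62.99 to 73.78% of T-like cells, against 2.912 to 8.780% of the deeper macrophage- or monocyte-like cells. At an equal depth of 1000 UMIs per cell, the T-like share was 26.15 to 38.57%. T-like cells gave 71.8% of all Ltb UMIs. B-like cells followed at 211.0, 416.1, 318.3 and 289.9 CPM and NK- or ILC1-like cells at 163.4, 277.4, 190.9 and 229.0 CPM. T-like cells were above B-like cells in all 4 libraries, although their ranges over the libraries overlapped. Macrophage- or monocyte-like cells were lowest, at 6.542, 4.825, 13.53 and 16.18 CPM.

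Neutrophil-like cells also held Ltb, at 210.3, 262.9, 154.8 and 369.3 CPM (138, 236, 201 and 69 UMIs). RNA free in the droplets or doublets with T cells could carry T-cell molecules into other classes, so the level of 6 T-cell markers (Cd3e, Cd3d, Cd3g, Trac, Cd4 and Cd5) was set beside it. The 6 summed to 7.08, 5.96, 5.08 and 1.61% of their T-like level in neutrophil-like cells, and Ltb stood at 55.7, 50.6, 30.7 and 77.8% of its T-like level there. In dendritic-like cells the markers were at 2.93, 2.44, 4.39 and 4.64% and Ltb at 15.3, 7.91, 14.8 and 21.2%. In macrophage- or monocyte-like cells the markers were at 0.670, 0.366, 1.04 and 0.785% and Ltb at 1.73, 0.928, 2.69 and 3.41%. The part of free RNA or doublets in these Ltb levels was not tested. Of the 6 markers, 1 was at 0 in neutrophil-like cells of the STING agonist and 1 in those of the combination library. None was at 0 in dendritic-like or in macrophage- or monocyte-like cells.

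Lta encodes lymphotoxin-α, the partner of lymphotoxin-β and itself a secreted ligand of the TNF receptors, and its counts were low. T-like cells held 13.80, 19.72, 18.39 and 16.13 CPM (146, 156, 200 and 200 UMIs). They gave 73.3% of all Lta UMIs. B-like cells stood at 12.87, 50.44, 9.412 and 12.89 CPM, of which the STING agonist value rested on 4 UMIs, and the order of T-like and B-like cells could not be read from these ranges. NK- or ILC1-like cells spread from 4.118 to 24.81 CPM, and macrophage- or monocyte-like cells stayed at 0.105 to 0.275 CPM, from 2 to 7 UMIs. The NK- or ILC1-like values rested on 11, 39, 14 and 20 UMIs, the highest being that of the STING agonist. Summed T-, NK- and B-like cells thus held more Lta and Ltb than summed macrophage-, dendritic- and neutrophil-like cells of the same library. The ratios were 19.9 to 102 for Lta and 12.0 to 21.8 for Ltb. Neutrophil-like cells weighed little in the myeloid sum, with 0.487 to 3.02% of the UMIs of a library. Their Ltb, at a median of 236.6 CPM, overlapped the B-like and the NK- or ILC1-like ranges.

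Within T-like cells thinned to 1000 UMIs, Lta and Ltb were found together in 16, 16, 11 and 14 cells. The product of the separate shares gave 6.80, 10.9, 9.26 and 8.20 cells. The count was above the product in each library, by least with the LTβR agonist, and 57 cells are few. The product takes the class as uniform, whereas T-like clusters differed in both genes, and the part of the cluster mix was not tested.

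Tnfsf14 encodes LIGHT, which shares LTβR with the lymphotoxins, and its leading class was another than theirs. Its gene (ENSMUSG00000005824) also lies on chromosome 17, apart from the others, at chr17:57189492-57194177 on the minus strand. Neutrophil-like cells had the highest level, at 33.52, 46.78, 30.81 and 21.41 CPM (22, 42, 40 and 4 UMIs), above the next class in every library. A UMI was found in 8.44, 11.5, 8.68 and 5.97% of these shallow cells. In macrophage- or monocyte-like cells it was found in 9.3, 11.1, 5.83 and 2.37%. After thinning to equal depth these shares were 2.42, 5.1, 5.11 and 1.72% against 1.08, 0.955, 0.86 and 0.274%. The larger part of the UMIs came from macrophage- or monocyte-like cells (59.5%), followed by T-like cells (20.6%) and neutrophil-like cells (7.78%). Macrophage- or monocyte-like cells held 12.84, 12.82, 8.222 and 3.119 CPM. NK- or ILC1-like cells (6.840, 17.81, 7.648 and 9.584 CPM) and T-like cells (5.860, 9.481, 5.148 and 7.503 CPM) were close to them, and these 3 classes overlapped. B-like cells had no Tnfsf14 UMI in 3 libraries, where a count of 3 would have given 7.720, 37.83 and 2.567 CPM, and 4 UMIs in the combination.

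Tnf, the gene of the inflammatory cytokine TNF, was highest in neutrophil-like cells, at 150.9, 240.6, 112.4 and 171.3 CPM (99, 216, 146 and 32 UMIs). T-like cells stood far below at 20.79, 35.14, 15.63 and 17.99 CPM and macrophage- or monocyte-like cells at 17.21, 20.25, 16.52 and 13.19 CPM, and these ranges overlapped. The neutrophil-like level was 7.22 times the T-like level at the median library. Neutrophil-like cells, which were few and shallow, gave 15.5% of all Tnf UMIs, against 45.0% from macrophage- or monocyte-like and 28.0% from T-like cells. Neutrophil markers in T-like cells were at 0.0191 to 0.158% of their own level and Tnf at 10.5 to 14.6%. The part of free RNA or doublets in T-like Tnf was not tested.

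**Figure D1:**
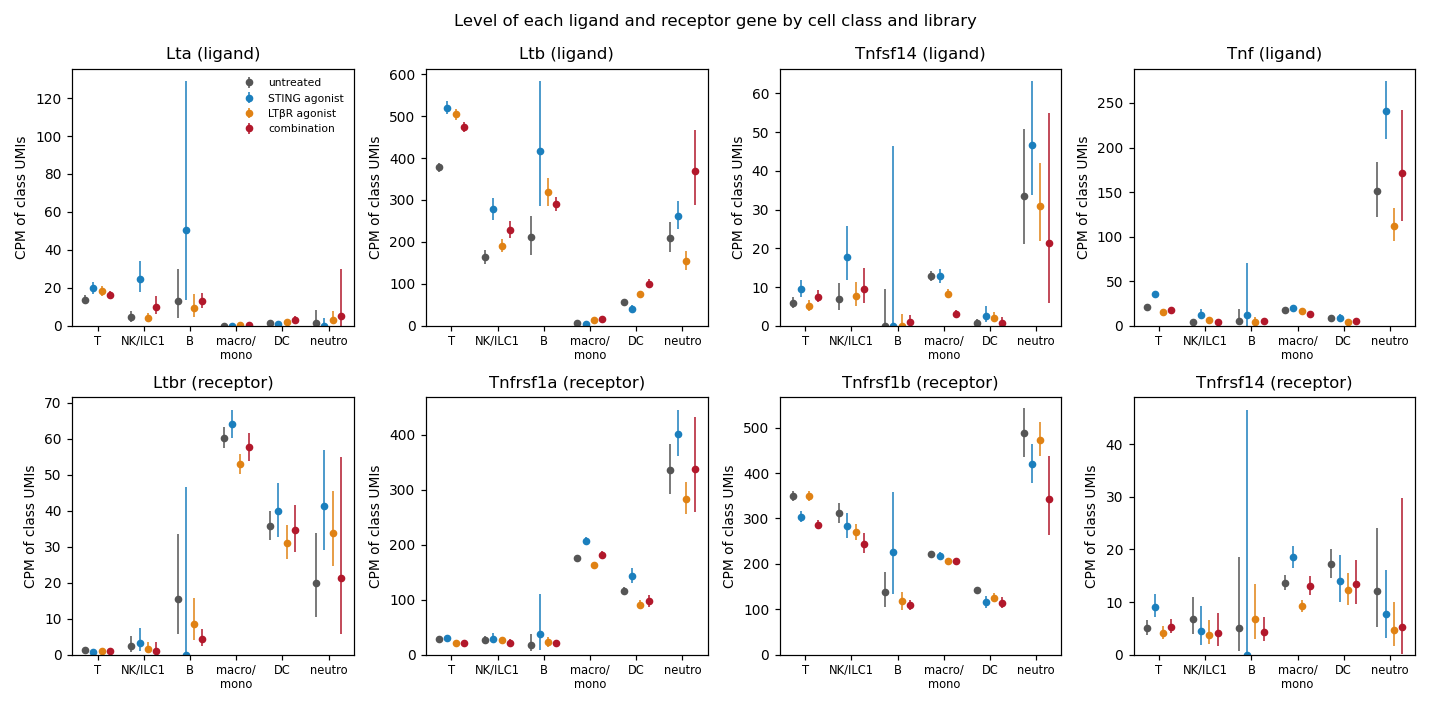
Level of each ligand gene (top) and receptor gene (bottom) in CPM of class UMIs (linear axis from 0) by cell class and library; points are single libraries and bars are exact Poisson 95% intervals of the counts. Lta and Ltb are high in T-like and low in macrophage- or monocyte-like cells, Ltbr is the reverse, and Tnfsf14, Tnf and Tnfrsf1a lead in neutrophil-like cells.

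Ltbr, the receptor for the lymphotoxin complex and LIGHT and the target of the agonist antibody, belonged to macrophage- or monocyte-like cells. Their level was 60.28 CPM in untreated tumors (1723 UMIs; 57.47 to 63.20), and 63.93, 52.91 and 57.58 CPM in the treated ones. Dendritic-like cells followed at 35.61, 39.75, 31.08 and 34.52 CPM, and the 2 ranges lay apart, with macrophage- or monocyte-like cells 1.68 times higher at the median library. Neutrophil-like cells overlapped the dendritic-like range at 19.81, 41.21, 33.89 and 21.41 CPM. Macrophage- or monocyte-like cells gave 80.3% of all Ltbr UMIs and dendritic-like cells 11.4%.

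Lymphocytes held almost no Ltbr. T-like cells had 14, 5, 11 and 13 UMIs (0.632 to 1.32 CPM), with a UMI in 0.369 to 0.585% of cells, against 31.42 to 42.29% of macrophage- or monocyte-like cells. After thinning to 1000 UMIs these shares were 0 to 0.216% and 4.221 to 6.412%. Macrophage markers in T-like cells stood at 0.852, 0.334, 1.09 and 1.59% of their own level and Ltbr at 2.20, 0.989, 1.91 and 1.82%, and the part of free RNA or doublets in T-like Ltbr was not tested. NK- or ILC1-like cells were at 1.009 to 3.181 CPM. B-like cells, with 6, 0, 10 and 16 UMIs, had 15.44, 0, 8.557 and 4.389 CPM, where 3 counts in the STING agonist library would give 37.83 CPM. Ltb was thus highest in T-like cells and Ltbr in macrophage- or monocyte-like cells, while UMIs of both were found in neutrophil-like and dendritic-like cells. In neutrophil-like cells macrophage markers stood at 8, 1.98, 9.49 and 7.44% of their own level. Ltbr stood there at 32.9, 64.5, 64 and 37.2% of its macrophage- or monocyte-like level, from 13, 37, 44 and 4 UMIs. The part of free RNA or doublets in neutrophil-like Ltbr was not tested.

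Tnfrsf1a encodes TNFR1, the broadly expressed TNF receptor with a death domain. It was highest in neutrophil-like cells (335.2, 402.1, 283.4 and 337.2 CPM), then in macrophage- or monocyte-like cells (175.1, 206.4, 163.7 and 181.4 CPM) and dendritic-like cells (115.5, 143.0, 91.23 and 97.04 CPM), with no overlap between these 3 classes over the libraries. All lymphoid classes were at 18.01 to 37.83 CPM and overlapped. Neutrophil-like cells thus had the highest level per class UMI of both Tnf and its receptor gene Tnfrsf1a. Per cell the order differed for Tnfrsf1a, with a UMI in 50.7, 57.9, 50.3 and 49.3% of neutrophil-like cells. In the deeper macrophage- or monocyte-like cells it was found in 66.4, 75.1, 60.3 and 59.3%. After thinning to equal depth these shares were 29.5, 32.3, 25.3 and 25.9% against 15.9, 19.2, 15.3 and 15.5%. Tnfrsf1a also lies near Ltbr on chromosome 6 (ENSMUSG00000030341 at chr6:125349362-125362484, plus strand, and ENSMUSG00000030339 at chr6:125306571-125313885, minus strand), 35477 bases apart, and both genes were myeloid.

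Tnfrsf1b encodes TNFR2, the second TNF receptor, found mainly on leukocytes, and was read in every class. Neutrophil-like cells were at 487.6, 418.8, 473.7 and 342.5 CPM and T-like cells at 349.0, 303.2, 349.0 and 285.9 CPM. NK- or ILC1-like cells followed at 244.1 to 311.8 CPM. Each class was above the following in all 4 libraries, with overlapping ranges. Macrophage- or monocyte-like cells, at 205.7 to 221.1 CPM, lay below the NK- or ILC1-like range. Unlike Tnfrsf1a, this receptor gene was thus shared by lymphoid and myeloid cells.

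Tnfrsf14, which encodes HVEM, the second receptor of LIGHT and the ligand of the inhibitory receptor BTLA, was low everywhere. It shares chromosome 4 with Tnfrsf1b (ENSMUSG00000042333 at chr4:154921933-154928563 and ENSMUSG00000028599 at chr4:145213463-145246870, both minus strand). Dendritic-like cells held 17.17, 13.95, 12.25 and 13.37 CPM and macrophage- or monocyte-like cells 13.64, 18.47, 9.206 and 13 CPM, so that neither led. T-like cells were at 5.010, 9.102, 4.045 and 5.244 CPM. Macrophage- or monocyte-like cells gave 61.9% of the UMIs and dendritic-like cells 16.6%.

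Over the 4 libraries, 4 of the 8 genes had a leading class whose range lay apart from that of the next class (Ltbr, Tnfsf14, Tnf and Tnfrsf1a). Among 15114 genes the same held for 30.9%. Ltbr, Tnfrsf1a and Tnfrsf14 were higher in the summed myeloid than in the summed lymphoid cells with no overlap, by 27.9 to 56.7, 6.04 to 8.01 and 2.10 to 2.69 times, where 24.4% of genes did so. Lta, Ltb and Tnfrsf1b were higher in lymphoid cells with no overlap, Tnfrsf1b by 1.28 to 1.62 times, where 50.7% of genes did so. Tnf and Tnfsf14 overlapped between the 2 sides. The count of lymphoid members, 3 of 8, is not above its background.

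**Figure D2:**
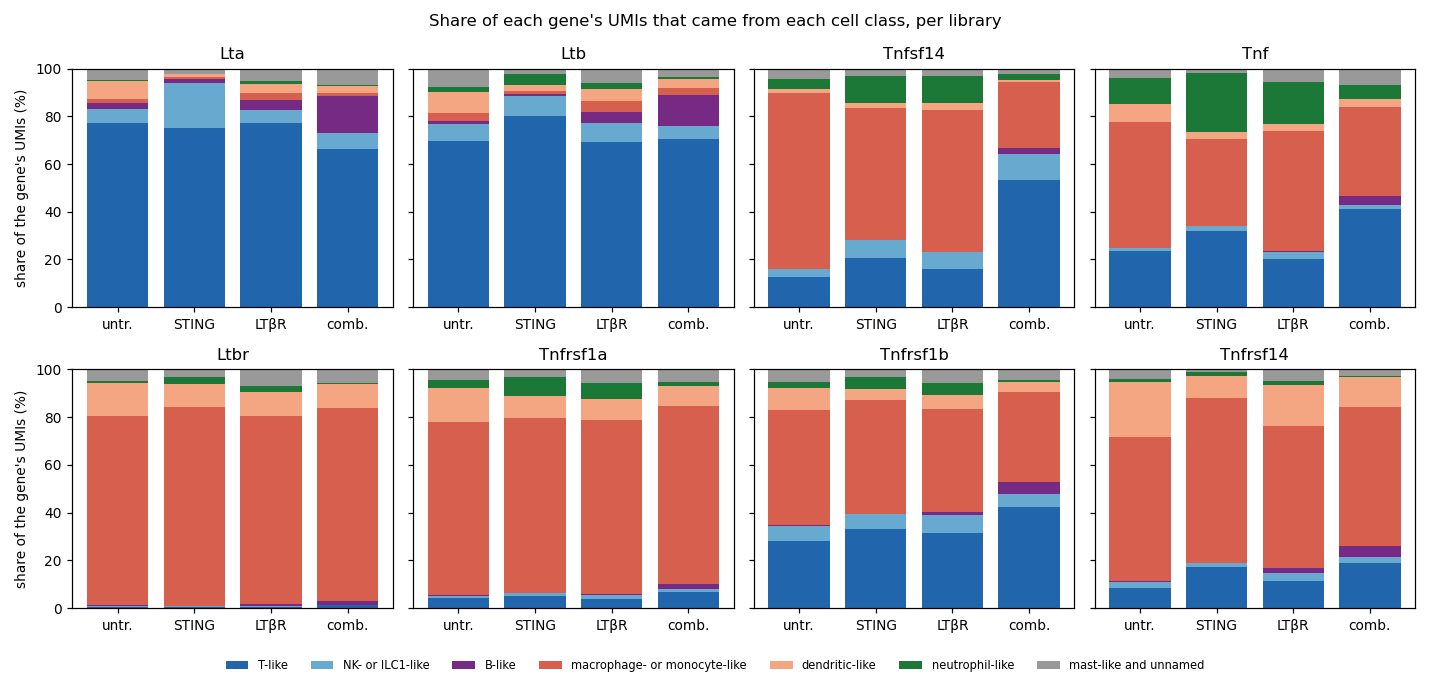
Share of each gene's UMIs (percent) that came from each cell class in each library; each bar is 1 library and sums to 100. The macrophage- or monocyte-like share of Tnfsf14 is 74.0% in untreated tumors and 27.6% in the combination, and that of Ltbr over the 4 libraries is 80.3%.

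The classes were not uniform inside. For Ltb, the T-like cluster 10, whose leading genes were Foxp3, Areg and Il2ra and which fits regulatory-like T cells, had the highest level of all clusters when the 4 libraries were summed, at 801.6 CPM (2625 UMIs). Cluster 21 followed at 732.7 CPM; it was led by Il17a, Cd163l1 and Il1r1 and fits Th17- or gamma-delta-17-like T cells. Cluster 3 (Penk, Cd4, Tnfsf11) had 661.0 CPM and the CD8-like cluster 1 (Cd8a, Gzmf, Prf1) 429.1 CPM. Over the summed libraries Lta had a different order among the same cells, with 61.38 CPM in cluster 21, 41.16 CPM in cluster 3 and 9.467 CPM in cluster 10. With the LTβR agonist this order did not hold, since cluster 21 stood below cluster 3 (110 UMIs in 490 cells). The values of cluster 21 by library are given under Other observations. By library, Ltb in the regulatory-like cluster 10 was 548.2, 611.9, 930.2 and 896.1 CPM (370, 257, 1224 and 774 UMIs) against 665.3, 941.3, 568.4 and 740.2 CPM in cluster 21, so that cluster 10 was the higher of the pair only in the LTβR agonist and combination libraries. Against untreated, Ltb in cluster 10 was higher by 0.752 (0.587 to 0.921) on the log2 scale with the LTβR agonist and by 0.699 (0.522 to 0.878) with the combination. In this small cluster, singled out after its values were seen, 10.4 and 15.3% of genes with at least 10 UMIs passed 1.5-fold.

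Among NK- or ILC1-like clusters, cluster 23 (Gzmc, Xcl1, Gzmd) stood out with 458.4 CPM of Ltb and 29.58 CPM of Lta. Among clusters of at least 100 cells, with the libraries summed, Tnf outside neutrophil-like cells was highest in cluster 21 (68.02 CPM). The macrophage- or monocyte-like cluster 19, led by the heat-shock genes Hspa1b and Hspa1a, followed (47.69 CPM). In cluster 19 a single cell held 30 of 104 Tnf UMIs with the LTβR agonist and another 19 of 33 with the combination. With the LTβR agonist cluster 21 stood below cluster 19. Tnfsf14 over the summed libraries was at like levels in clusters 21 (23.78 CPM), 23 (20.4 CPM) and the macrophage- or monocyte-like cluster 8 (19.55 CPM), whose leading genes include the monocyte genes Hp and Vcan beside Gm9733, Lyz2 and Plcb1. Their order differed between libraries, with 27.31, 34.59, 10.63 and 22.43 CPM in cluster 21 (4 to 14 UMIs) and 24.81, 32.90, 20.59 and 5.634 CPM in cluster 8. Cluster 8 also led for Ltbr at 99.1 CPM, ahead of cluster 2 (Tgm2, Thbs1, Cxcl10) at 72.77 CPM and the C1q macrophage-like cluster 0 at 53.61 CPM.

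For the receptors of TNF the clusters parted again. Tnfrsf1b was highest in the regulatory-like cluster 10 (677.0 CPM), whereas Tnfrsf1a was highest in the neutrophil-like cluster 6 (333.0 CPM). The genes Ace, Adgre4 and Ear2 led the macrophage- or monocyte-like cluster 17, which held 501.6 CPM of Tnfrsf1b and 227.7 CPM of Tnfrsf1a. Tnfrsf14 was highest in the mature dendritic-like cluster 18 (Fscn1, Ccr7, Ccl22) at 21.61 CPM, from 106 UMIs.

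**Figure D3:**
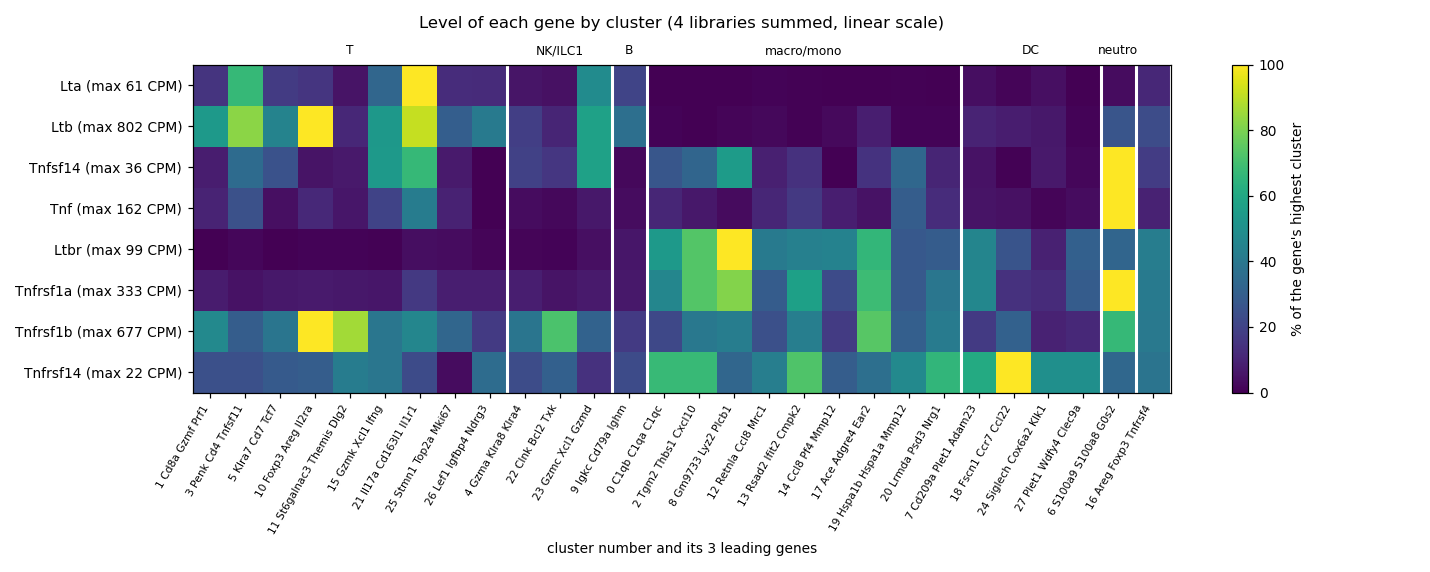
Level of each gene in each cluster of at least 100 cells (columns, ordered by class, the last column being the unnamed cluster), as percent of the gene's highest cluster on a linear color scale; the 4 libraries are summed and the highest level in CPM stands beside the gene. Lta is highest in the T-like cluster 21 (61.38 CPM) and only 9.467 CPM in cluster 10, where Ltb is highest (801.6 CPM); Ltbr is highest in the macrophage- or monocyte-like cluster 8 (99.1 CPM).

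Over the 28 clusters of at least 100 cells, log2(CPM + 10) of Ltbr and Tnfrsf1a had a Pearson r of 0.929, Lta and Ltb 0.818, and Ltb and Ltbr -0.771. Lta and its neighbor Tnf had 0.283, and Ltb and Tnf 0.159. These clusters share libraries and cells of 1 class are alike, so r is a description. Of 12481 genes searched, those most like Ltbr included Card9 (0.967) and Csf2ra (0.964), and the 3 most like Ltb were Thy1 (0.891), Gimap1 (0.891) and Il27ra (0.887). Most like Tnfrsf1a were C130050O18Rik, Mefv and Gm46224 (0.941 to 0.967), most like Tnfrsf1b Stx11, Lcp2 and Acot9 (0.799 to 0.859), and most like Tnfrsf14 Nectin2, Pgap2 and Adap2os (0.800 to 0.841). For Lta these were Lysmd2, Krt83 and Bik (0.886 to 0.923). For Tnf they were Gm13840, Popdc2 and Ifit1bl2 (0.759 to 0.798), and for Tnfsf14, with no close match, Per1, Taf7 and Gm13840 (0.671 to 0.687).

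The next question was whether treatment changed the members within a class. A difference is the log2 ratio of CPM + 10, and a member counts as different past 1.5-fold in either direction, with at least 50 UMIs in 1 of the 2 libraries and 100 cells in both. The comparisons with untreated tumors share the untreated library. Against it, the members past 1.5-fold were Ltb in NK- or ILC1-like cells with the STING agonist, Ltb and Tnfsf14 in macrophage- or monocyte-like and Ltb in dendritic-like cells with the combination, and Tnf in neutrophil-like cells with the STING agonist. With the comparisons of the combination with the single agonists there were 9 such differences, of which 2 passed with a pseudocount of 50 CPM. In a single comparison 0 to 2 of 2 to 7 members with enough UMIs passed, where 0.207 to 12.1% of all genes did.

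Tnfsf14 was lower in macrophage- or monocyte-like cells of the combination. The 4 libraries held 12.84 CPM (367 UMIs), 12.82 (202), 8.222 (209) and 3.119 (48), so that untreated and STING agonist values were nearly equal, the LTβR agonist lower and the combination lowest. The log2 ratio of combination to untreated was -0.800 (-0.926 to -0.664), and CPM alone stood at 0.243 of untreated. Against the STING agonist, where 2.78% of genes passed, it was -0.799 (-0.947 to -0.643), and against the LTβR agonist, at -0.474 (-0.605 to -0.335), it did not pass 1.5-fold. The share of cells with a UMI was 9.302, 11.05, 5.830 and 2.366% at median depths of 7457.5 to 10308 UMIs, against 0.719 to 2.532% in the dendritic-like cells at 9771.5 to 12190 UMIs. At a pseudocount of 50 CPM both differences past 1.5-fold were -0.242 and no longer did so. Of genes tested in this class, 0.207, 1.41 and 2.65% passed 1.5-fold.

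The lower level was seen within the larger clusters as well. In the C1q macrophage-like cluster 0 the values were 12.95, 10.72, 5.889 and 3.545 CPM, and the combination differed from untreated by -0.761 (-0.965 to -0.520). Cluster 2 went from 16.20, 14.91 and 8.691 CPM to 2.532 CPM, a difference of -1.06 (-1.31 to -0.752). In cluster 8, the monocyte-rich cluster with the highest level, 24.81, 32.90, 20.59 and 5.634 CPM were measured, a difference of -1.15 (-1.61 to -0.646). The combination values of clusters 0, 2 and 8 rested on 17, 8 and 10 UMIs. In these clusters 2.39, 3.6 and 6.41% of genes with at least 10 UMIs passed 1.5-fold between combination and untreated. The mix of clusters also differed, as cluster 0 held 1410 of 3150 untreated and 417 of 1902 combination cells of the class, and cluster 12 (Retnla, Ccl8, Mrc1), low in Tnfsf14, 96 and 343. In T-like cells Tnfsf14 was 5.860 CPM in untreated and 7.503 CPM in combination tumors (0.142, -0.0474 to 0.328), and the gap between the classes was not tested. Macrophage- or monocyte-like cells gave 74.0, 55.3, 59.2 and 27.6% of all Tnfsf14 UMIs.

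**Figure D4:**
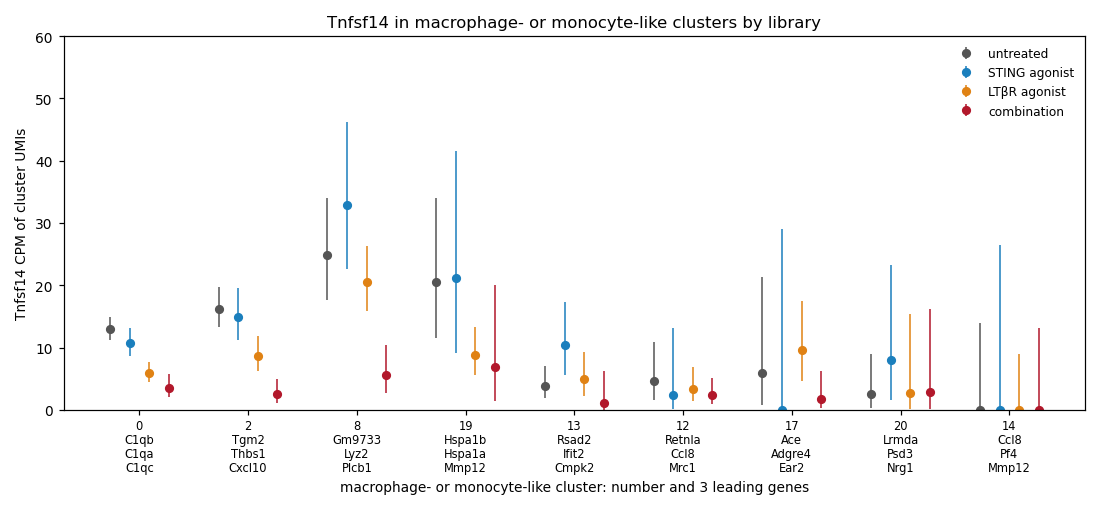
Tnfsf14 level in CPM of cluster UMIs (linear axis from 0) in each macrophage- or monocyte-like cluster, named by its number and 3 leading genes, for each library; points are single libraries and bars are exact Poisson 95% intervals. In clusters 0, 2 and 8 the combination is lowest, at 3.545, 2.532 and 5.634 CPM.

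Ltb differed in 3 classes. In NK- or ILC1-like cells the 163.4 CPM of untreated tumors became 277.4 CPM with the STING agonist, a difference of 0.729 (0.541 to 0.917), where 3.75% of genes passed. With the LTβR agonist it was 0.213 (0.0423 to 0.384) and with the combination 0.463 (0.278 to 0.649), below 1.5-fold, where 1.36% and 4.88% of genes passed. Cluster 23, high in Ltb, made up 86 of 274 NK- or ILC1-like cells with the STING agonist and 61 of 501 in untreated tumors. With clusters weighted by their untreated shares the difference was 0.236 and no longer passed.

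In dendritic-like cells Ltb stood at 57.88 CPM in untreated tumors (499 UMIs), then 41.15 (118), 74.77 (409) and 100.5 CPM (323). Cells of the combination exceeded untreated by 0.703 (0.520 to 0.883) and the STING agonist by 1.11 (0.853 to 1.37), where 5.17% of genes passed. Without the 10 cells richest in Ltb the difference from untreated was 0.490 and no longer passed. In this class 1.18, 1.26 and 2.29% of genes passed. The mature dendritic-like cluster 18 moved from 60.04 to 118.2 CPM (0.872, 0.516 to 1.22), in a cluster where 12.5% of genes with at least 10 UMIs passed 1.5-fold, and the Cd209a cluster 7 from 69.46 to 100.4 CPM (0.474, 0.237 to 0.709). Summed T-cell markers in dendritic-like cells were 110.9, 93.45, 145.0 and 154.6 CPM, in the same order as Ltb, and their part in the difference was not tested.

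In macrophage- or monocyte-like cells Ltb was low and differed between libraries. It was 0.662 higher with the combination than in untreated tumors (0.522 to 0.802; 16.18 against 6.542 CPM) and 0.821 higher than with the STING agonist (0.661 to 0.974), and the LTβR agonist alone, at 0.509 (0.386 to 0.629), did not pass. With clusters weighted by their untreated shares these 2 calls ended, at 0.369 and 0.518. Cluster 17, with the highest Ltb of this class (68.28 CPM), held 64 of 3150 untreated and 216 of 1902 combination cells, and inside it Ltb was 29.59 CPM untreated (10 UMIs) and 84.22 CPM with the combination (97 UMIs), a difference of 1.25 (0.499 to 2.01) in a cluster where 17% of genes with at least 10 UMIs passed. T-cell markers in this class summed to 25.37, 14.03, 34.30 and 26.12 CPM, and their part was not tested.

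T-like cells, the main source, held more Ltb in every treated library, by 0.452 (0.390 to 0.513), 0.407 (0.350 to 0.465) and 0.323 (0.266 to 0.380), each short of 1.5-fold. The mix of clusters also differed. Cluster 11, low in Ltb (74 UMIs in 310 untreated cells), held 310, 174, 134 and 120 of 1913, 1355, 2103 and 2052 T-like cells. Cluster 10, with the highest Ltb, held 162, 101, 337 and 169. The part of this mix in the T-like differences was not tested. In this class 1.65, 1.71 and 1.49% of genes passed, and no member was among them. The nearest was Tnf with the STING agonist, 35.14 against 20.79 CPM (0.552, 0.364 to 0.738). The combination did not share that level, at 17.99 CPM, and differed from the STING agonist by -0.690 (-0.871 to -0.507), past 1.5-fold, where 1.27% of genes passed. That call ended without the 10 cells richest in Tnf (-0.561) and with clusters weighted by their untreated shares (-0.537).

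In neutrophil-like cells Tnf was 0.639 higher with the STING agonist than in untreated tumors (0.311 to 0.974; 240.6 against 150.9 CPM), in a shallow class where 10.5% of genes passed 1.5-fold. The call ended in 4 settings: without the 10 richest cells the difference was 0.222, with equal weight for each cell 0.195, without cells that held markers of 2 classes 0.541, and with a pseudocount of 50 CPM 0.533. With the LTβR agonist, where 12.1% of genes passed, Tnf was -0.394 (-0.742 to -0.0411). The 67 neutrophil-like cells of the combination were too few for a ratio.

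By the same measure the receptor genes moved less. Ltbr passed 1.5-fold in no class. In macrophage- or monocyte-like cells it differed from untreated by 0.073 (-0.0246 to 0.170), -0.160 (-0.248 to -0.0720) and -0.0566 (-0.157 to 0.0438). In neutrophil-like cells Ltbr had 13, 37, 44 and 4 UMIs, too few for the rule. In dendritic-like cells its 3 intervals all included 0. Tnfrsf1a, Tnfrsf1b and Tnfrsf14 passed in no class either, with Tnfrsf1a at most 0.285 from untreated in dendritic-like cells (0.128 to 0.441) on the higher side and -0.310 (-0.453 to -0.169) on the lower. B-like cells could be compared only between combination and LTβR agonist, where Ltb differed by -0.130 (-0.296 to 0.0378) and no member passed, against 4.59% of genes.

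**Figure D5:**
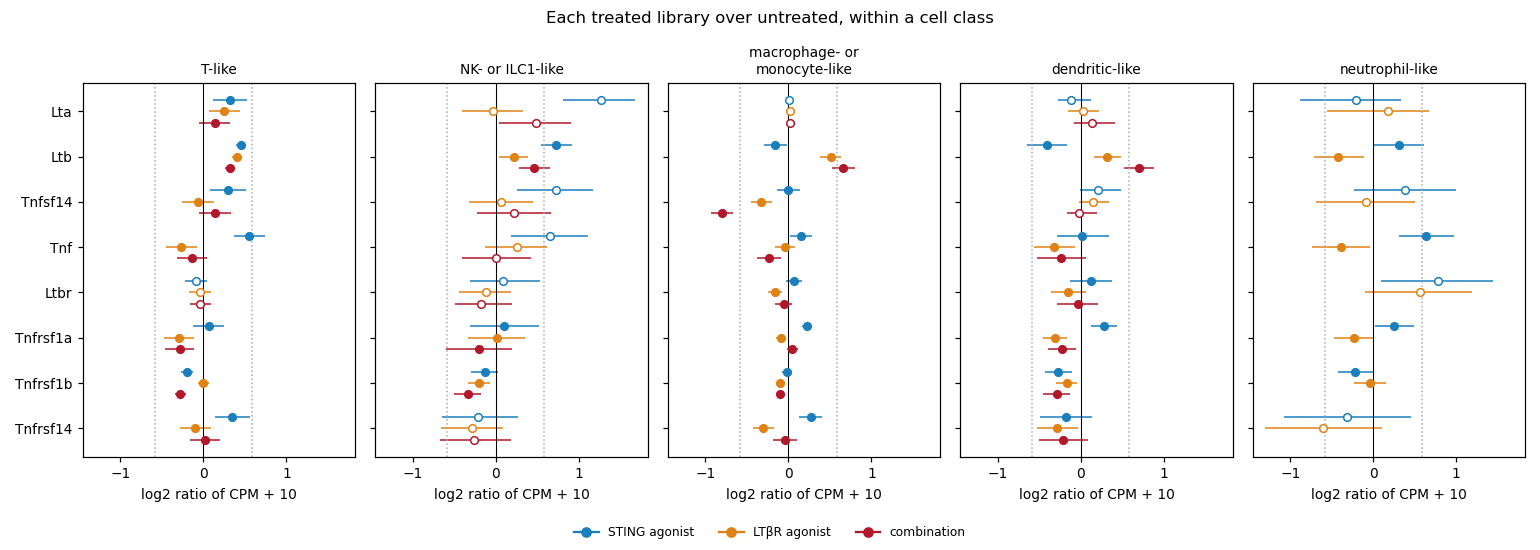
Log2 ratio of CPM + 10 of each treated library to the untreated library for the 8 genes in 5 cell classes; points are single comparisons, bars are 95% intervals for counting error, dotted lines mark 1.5-fold, and open points had under 50 UMIs in both libraries. Tnfsf14 in macrophage- or monocyte-like cells of the combination lies at -0.800, while all Ltbr points of that class lie between -0.160 and 0.073.

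Over all filtered cells, Ltb was past 1.5-fold against untreated with the STING agonist and the combination, and no other member was, where 0.690% and 3.51% of genes passed, against 1.14% with the LTβR agonist. Ltb stood at 106.5, 172.7, 157.6 and 217.2 CPM. With the classes of each library weighted by their untreated shares, the Ltb differences were 0.356, 0.361 and 0.403, and none passed. Ltbr, at -0.387 over all cells of the combination, stood at -0.0524 with untreated class shares. In a sum over all cells, fewer cells of a class and less RNA per cell cannot be told apart.

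The rest of the pathway was read from a list of 28 genes, which the table holds under 30 gene identifiers. Of these, 23 had enough UMIs in T-like and in macrophage- or monocyte-like cells. The noncanonical arm was dendritic: Map3k14, which encodes NIK, stood at 260.3 to 310.4 CPM in dendritic-like cells against 59.16 to 89.72 CPM in the next class. Relb, which encodes an NF-κB protein of that arm, stood at 156.1 to 226.3 against 66.58 to 89.13 CPM. Nfkb2, the gene of the precursor that NIK activates, led there at 113.0 to 156.9 CPM but overlapped neutrophil-like cells. The adaptor gene Traf1 was also highest in dendritic-like cells (293.9 to 378.3 CPM). Btla, the receptor that binds HVEM, was highest in B-like cells (169.4 to 277.4 CPM), and Nfkbia, the inhibitor gene that NF-κB itself induces, in neutrophil-like cells (1937 to 2528 CPM).

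Few of these genes passed 1.5-fold against untreated tumors. In macrophage- or monocyte-like cells, where 0.207, 1.41 and 2.65% of all genes passed, 0 of 23 did so with the STING agonist. In either library that had received the LTβR agonist 1 of 23 did so. That gene was Vcam1, an adhesion molecule gene downstream of LTβR, at 3.184 (91 UMIs), 3.746 (59), 16.33 (415) and 23.72 CPM (365). It was higher by 0.998 (0.882 to 1.11) with the LTβR agonist and by 1.35 (1.22 to 1.48) with the combination, and both still passed with clusters weighted by their untreated shares (0.609 and 0.756). The median over the 23 was 0.0130 and 0.0362. In T-like cells, where 1.65, 1.71 and 1.49% of all genes passed, 1 of 23 passed with each single agonist and 0 with the combination. It was Nfkbia, higher by 0.733 (0.669 to 0.797) with the STING agonist and 0.637 (0.576 to 0.698) with the LTβR agonist, but by 0.526 and 0.285 with untreated cluster shares, where neither passed.

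In NK- or ILC1-like cells Cd160, another receptor for HVEM, was higher with the STING agonist (0.808, 0.462 to 1.15), and Traf3, which restrains NIK, lower with the combination (-0.642, -0.910 to -0.376). They were 1 of 19 and 1 of 20 list genes, where 3.75 and 4.88% of all genes passed. Neither passed with untreated cluster shares (0.278 and -0.355). In dendritic-like cells 0 of 22 passed with any treatment, where 1.18, 1.26 and 2.29% of all genes passed. In neutrophil-like cells Traf1 was higher (1.00, 0.585 to 1.43) and Icam1, an adhesion gene, lower (-1.30, -1.59 to -1.01) with the LTβR agonist. Of 16 list genes with enough UMIs there, 1 was thus higher and 1 lower, where 12.1% of all genes passed 1.5-fold. The lymphoid chemokine genes that LTβR is known to switch on in stroma were at the edge of detection, with 6 UMIs of Cxcl13, 15 of Ccl19 and 0 of Ccl21a in all filtered cells, and Madcam1 had 0.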

How the data were processed

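Single-cell RNA was measured in 4 pooled, CD45-sorted tumor samples, 1 per group. The authors aligned 10x 5′ libraries to mm10 with Cell Ranger 7.1.0 and deposited 1 matrix of raw UMI counts, in which the end of each barcode names the library; whether intronic reads were counted is not given in the sources used here, and 5′ counts are not scaled by length, so levels were compared within a gene only. From these counts, cells with 300 to 5000 genes and at most 6% mitochondrial UMIs were kept (90.9 to 94.8% per library). Clusters were built with scanpy 1.11.5 (2000 variable genes, 30 components, 20 neighbours, Leiden resolution 1), without the 8 members, the 28 pathway genes and 634 antigen-receptor genes. A cluster took a class name where at least 3 of the class's markers were detected in 10% of its cells and the next class scored under 0.5 of the leading score; 28 of 29 were named. The limits of this naming rule were chosen with the clusters in view.

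UMIs were summed per library and class as CPM with exact Poisson 95% intervals, and differences are log2 ratios of CPM + 10 with intervals for counting error only. With no replicate library no test was possible. Genes with at least 50 UMIs in 1 of the 2 libraries formed the background of each 1.5-fold count, and a floor is 3 counts. For shares at equal depth each cell was thinned to 1000 UMIs, leaving out 35 to 86 shallower T-like and 45 to 130 macrophage- or monocyte-like cells per library. All 8 members were named; pathway genes were named where they passed 1.5-fold or led a class, and the 3 genes with the highest Pearson r over clusters of at least 100 cells were named for each member, except 1 that is not reported here. Doublets were kept: 124 to 418 cells per library held markers of 2 classes, 74 to 233 had a Scrublet score above 0.2, and 94 to 134 barcodes per library also occurred in another library. The calculations were tested on simulated data. Alternatives varied the clustering genes, resolution (0.5 and 2), class names, doublets, cell filter, pseudocount (1 and 50), scaling, weights and the minimum UMIs (10). The members, lists and promoter motifs were chosen with earlier results of these data known. Python 3.11.15, numpy 2.4.6, scipy 1.17.1, pandas 2.3.3 and matplotlib 3.10.9 were used.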

Additional observations from a re-analysis of the deposited data

Results flagged for a closer look

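Ltb differed from untreated with opposite signs in different classes of the same library, though 3 of the 4 values below did not pass 1.5-fold. With the STING agonist it was higher than untreated in NK- or ILC1-like cells (0.729, 0.541 to 0.917, log2 ratio of CPM + 10, but 0.236 with untreated cluster shares) and lower in dendritic-like cells (-0.408, -0.649 to -0.169), a gap of 1.14. With the LTβR agonist it was higher in macrophage- or monocyte-like cells (0.509, 0.386 to 0.629) and lower in neutrophil-like cells (-0.419, -0.719 to -0.115), a gap of 0.928. With 1 library per group these gaps between classes were not tested.

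The 44 mast- or basophil-like cells, which entered no comparison, held Ltbr at 68.52 CPM over the 4 libraries (25 UMIs) and Tnf at 84.97 CPM (31 UMIs). Ltbr was 118.0, 0, 35.24 and 88.04 CPM and Tnf 7.865, 45.39, 88.11 and 308.2 CPM in the order untreated, STING agonist, LTβR agonist and combination. The values summed over the libraries stood above the class that ranked second for the gene, dendritic-like cells for Ltbr and T-like cells for Tnf, but not those of each library. A single cell with the LTβR agonist and a single cell with the combination held 10 Tnf UMIs each.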

How the results depend on the processing

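No paired analysis was possible because each group had 1 library and the results come from no test. The number of members whose leading class lay apart from the next was 4, was 3 to 5 under the clustering, naming, doublet and filter settings, and was 4 to 6 with each library left out in turn (6 without the STING agonist library). The order of T-like over B-like cells for Lta reversed when each cell was named by its highest marker score (-0.0303 against 0.124), the leading class of Tnfrsf14 became the macrophage- or monocyte-like class under that naming and without cells of 2 classes, and the causes were not tested. The number of differences (a member in a class between 2 libraries) past 1.5-fold was 9 in all, 17 with a pseudocount of 1 CPM, 2 with 50 CPM, 5 with clusters weighted by their untreated shares and 15 with a minimum of 10 UMIs. In the main setting 0.207 to 12.1% of all genes passed, depending on the comparison. Over the settings of the 9 differences 92 values kept the call and 16 lost it, with no change of direction. The difference of Ltb in dendritic-like cells between combination and STING agonist passed in 12 of 12 settings (0.723 to 1.48), and that of Tnfsf14 in macrophage- or monocyte-like cells from untreated in 11 of 12 (-1.75 to -0.242). Tnf in neutrophil-like cells passed in 8 of 12 (0.195 to 0.726). Over all cells the count of 2 such differences became 6 with a pseudocount of 1 CPM, 1 with 50 CPM and 0 with untreated class shares. The number of members whose leading class by share of cells with a UMI lay apart was 1 as counted and 4 after thinning to 1000 UMIs. Low counts limit Lta and Tnfsf14 most (958 and 1388 UMIs in all).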

Other observations

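Within the T-like cluster 21 (Il17a, Cd163l1, Il1r1; 105, 85, 90 and 137 cells in untreated, STING agonist, LTβR agonist and combination tumors), chosen after its values were seen, Lta and Tnf were lower with the LTβR agonist. Lta stood at 96.81, 96.35, 10.63 and 46.46 CPM (39, 39, 4 and 29 UMIs), a log2 ratio of CPM + 10 of -2.37 (-3.17 to -1.42) for the LTβR agonist over untreated. Tnf stood at 96.81, 98.82, 26.56 and 54.47 CPM (39, 40, 10 and 34 UMIs), a ratio of -1.55 (-2.35 to -0.732). A single untreated cell held 13 of the 39 Lta UMIs, and a single untreated cell held 17 of the 39 Tnf UMIs. Lta was found in 12, 23, 4 and 19 cells and Tnf in 16, 23, 8 and 21 cells. Ltb stood at 665.3, 941.3, 568.4 and 740.2 CPM. In this cluster 13.3% of genes with at least 10 UMIs were lower past 1.5-fold with the LTβR agonist.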
